A study of Mus musculus with 12 samples.

Results

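Ccnd1, Ccnd2 and Ccnd3, which encode the 3 D-type cyclins, and the inhibitor genes Cdkn1b, Cdkn2a, Cdkn2b, Cdkn2c and Cdkn2d were followed in RNA-seq libraries of mouse embryonic stem cells labelled as with or without the sphingosine kinase gene Sphk1. The 8 genes were taken by symbol from a count table of 22753 genes, with earlier results of these data known. All 8 passed the filter on low counts that left 15179 genes for testing.

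Clone 10 and clone 4 were embryonic stem cell lines from Sphk1fl/fl Sphk2-/- mice, grown in medium with serum and leukaemia inhibitory factor. Both were treated with 6 uM (Z)-4-hydroxytamoxifen for 48 h and then sorted on Cre-GFP, a fluorescent recombinase. The GFP-positive cells are labelled Sphk1-/- Sphk2-/- and the GFP-negative cells Sphk1fl/fl Sphk2-/-. There were 3 libraries each of clone 10 GFP-positive, clone 10 GFP-negative, clone 4 GFP-positive and clone 4 GFP-negative cells. Every group is therefore labelled as lacking Sphk2 and received the drug, and the GFP-negative cells stand for sorted, treated cells rather than for untouched ones. Each line is 1 clone, and no source used here gives the promoter that drives Cre-GFP. The labels do not say whether replicates came from separate cultures or sorts. The p-values therefore cover only the spread among these libraries, which may be technical.

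D-type cyclins bind CDK4 and CDK6, and the complex phosphorylates the retinoblastoma protein, which releases E2F factors and lets a cell leave G1. The INK4 proteins encoded by Cdkn2a, Cdkn2b, Cdkn2c and Cdkn2d (p16, p15, p18 and p19) block CDK4 and CDK6, and p27, encoded by Cdkn1b, belongs to the CIP/KIP family that also restrains cyclin E with CDK2. Cdkn2a has a further product, ARF, which is read from its own first exon and holds back MDM2, the ligase that destroys p53. Mouse embryonic stem cells are known for a short G1, for low D-cyclin levels compared with differentiated cells and for high cyclin E activity.

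Libraries held 12968916 to 34258395 counts. The shallowest, clone 10 GFP-negative replicate 1, stood apart, with a normalization factor of 0.83 against 0.932 to 1.08 in the other libraries and 0.143% of its counts in mitochondrial genes. The mitochondrial share ran from 0.594% to 2.32% in the other libraries and, within each of the 6 pairs of equal clone and replicate number, exceeded in the GFP-positive library that of its partner. In 5 of the 6 pairs the GFP-positive library is also labelled 1 passage later. Sphk1 was present at 0.89, 1.14 and 3.01 CPM (read counts scaled to the library total, replicates 1 to 3) in clone 10 GFP-positive cells, against 0.694, 1.41 and 4.30 CPM in clone 10 GFP-negative cells. Its clone 4 levels were 2.02, 1.07 and 0.701 CPM in GFP-positive cells, against 1.96, 3.02 and 1.78 CPM in GFP-negative cells. The groups overlapped in both clones, and the log2 change over both clones was -0.63 (SE 0.46, adjusted p = 0.767). Sphk2 was listed at 1.19 to 8.34 CPM although all cells are labelled null. No source used here gives the deleted parts, so gene totals cannot check these labels. All 12 pluripotency markers were detected in every library.

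Cdkn2a and Cdkn2b lie side by side on chromosome 4, and the start of the ARF transcript, the start of the p16 transcript and the start of Cdkn2b are shown because reads from both Cdkn2a starts enter a single count. The RefSeq starts of ARF and p16 lie 12427 bases apart, and that of Cdkn2b lies 16413 bases upstream of the ARF start. The lines give the 250 bases before each start (RefSeq, GRCm38, minus strand, 5′ to 3′), at chr4:89294620-89294869 for ARF, chr4:89282193-89282442 for p16 and chr4:89311033-89311282 for Cdkn2b. Capitals mark matches, on either strand, to the GC box GGGCGG, the CCAAT box CCAAT, the cyclic AMP element TGACGTCA, the E2F forms TTTGGCGC and TTTCCCGC, the TATA box TATAAA, the E-box CACGTG, the T-box half-site GGTGTGA or the forkhead motif GTAAACA.
Cdkn2a, ARF start: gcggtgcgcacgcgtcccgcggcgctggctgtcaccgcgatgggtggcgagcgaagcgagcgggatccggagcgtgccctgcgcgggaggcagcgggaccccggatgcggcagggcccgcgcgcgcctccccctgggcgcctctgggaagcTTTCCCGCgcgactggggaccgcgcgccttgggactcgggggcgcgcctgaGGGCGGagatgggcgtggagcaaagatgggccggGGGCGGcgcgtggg
Cdkn2a, p16 start: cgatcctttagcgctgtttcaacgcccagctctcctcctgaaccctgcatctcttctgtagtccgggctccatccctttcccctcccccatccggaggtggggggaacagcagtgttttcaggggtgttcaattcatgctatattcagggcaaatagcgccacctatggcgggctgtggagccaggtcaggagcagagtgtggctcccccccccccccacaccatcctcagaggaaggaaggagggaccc
Cdkn2b start: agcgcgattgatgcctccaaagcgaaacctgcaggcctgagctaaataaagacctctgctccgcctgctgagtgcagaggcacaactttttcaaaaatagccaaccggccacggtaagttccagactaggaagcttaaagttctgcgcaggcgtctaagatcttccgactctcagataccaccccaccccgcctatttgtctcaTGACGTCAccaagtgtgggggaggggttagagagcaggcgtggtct
The ARF window held 2 GC boxes, a motif found in 32.7% of the 32817 RefSeq windows of this length, and 1 E2F form TTTCCCGC, found in 0.893%. The Cdkn2b window held 1 cyclic AMP element, found in 1.55% of windows. None of the letters searched was in the p16 window. A match is a description of the sequence only, and no overlap between motifs occurred in these windows. Of the other members, Ccnd3, Cdkn1b, Cdkn2c and Cdkn2d had an entry in the promoter table.

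Per length of annotated exon Cdkn2a, Ccnd3 and Ccnd1 stood highest and close together, and Cdkn2c lowest. In RPKM, which divides the CPM by the exon length of the gene in kilobases, the means over the 12 libraries were 27.2 for Cdkn2a, 25.6 for Ccnd3 and 24.0 for Ccnd1. That length joins all annotated exons of a gene, 8775 bases for Ccnd3 and 1172 for Cdkn2a, and can exceed that of a single transcript. The order between genes therefore depends on the length used. Cdkn2d averaged 11.9 RPKM, Cdkn2b 7.80, Ccnd2 7.61 and Cdkn1b 7.23. Cdkn2c was lowest at 1.25 RPKM and 42 to 109 counts per library. The neighbours in this order overlapped in range, Cdkn2a at 11.5 to 40.6 RPKM, Ccnd3 at 15.4 to 45.7 and Ccnd1 at 8.23 to 49.0, so the order among these 3 is within their spread. Ccnd2 varied most, 76.9-fold between its lowest and highest library, while the other 7 genes varied 2.85-fold to 5.95-fold. Its standard deviation of 1.26 in log2 CPM between libraries of a group lay at percentile 96.3 of all genes tested. Ccnd2 was lowest in replicate 1 of 4 of 4 groups, the libraries of passages 11 and 12, and Ccnd1 in 3 of 4. The libraries are bulk samples, in which fewer cells of a type and less RNA per cell cannot be told apart.

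**Figure D1:**
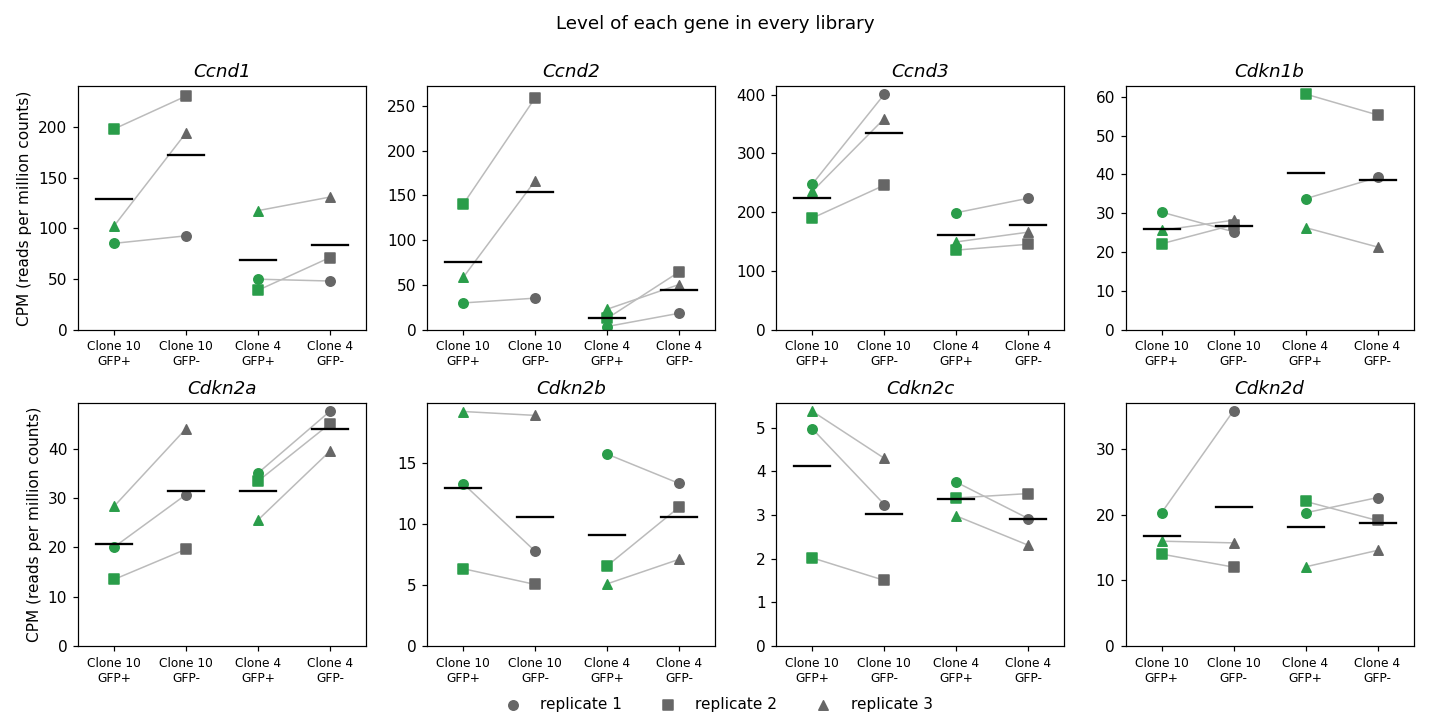
Level of each of the 8 genes in CPM on linear axes from 0, 1 point per library, by group. Black bars mark the group means, grey lines join the libraries of a pair and the point shapes give the replicate. Ccnd2 spans 3.37 to 259 CPM, far wider than Ccnd3 at 135 to 401 CPM, and Cdkn2a in clone 4 separates the gates, at 25.5 to 35.1 CPM in GFP-positive and 39.5 to 47.6 CPM in GFP-negative cells.

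The first question was whether D-type cyclin transcripts changed with the gate, GFP-positive against GFP-negative. All 3 were lower in the GFP-positive library in 6 of 6 pairs on the log2 CPM scale of the fit, as were 7.29% of all genes tested. By plain CPM Ccnd1 was lower in 5 of 6. Ccnd2 fell in the test within pairs over both clones, by 1.47 on the log2 scale, and Ccnd3 fell within pairs in clone 10, by 0.68. The other cyclin changes did not pass the test.

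Ccnd2, the D-cyclin known for its part in B cells, granulosa cells and brain growth, had 29.7, 140 and 58.2 CPM in clone 10 GFP-positive cells, against 35.1, 259 and 166 CPM in clone 10 GFP-negative cells. The levels in clone 4 were 3.37, 12.4 and 22.7 CPM in GFP-positive cells, against 18.2, 64.4 and 50.3 CPM in GFP-negative cells. Each GFP-positive library lay below its partner, yet the groups overlapped in both clones, with replicates of a group up to several-fold apart. The differences within the pairs were -0.54, -0.91 and -1.54 in clone 10 and -2.47, -2.34 and -1.06 in clone 4 (log2 CPM, replicates 1 to 3). Over both clones the log2 change was -1.38 (SE 0.57, adjusted p = 0.67) in the fit across all libraries. With the pair held as a block it was -1.47 (SE 0.21, 95% confidence interval -1.93 to -1.0, adjusted p = 0.00792). By clone, the change within pairs was -1.01 (SE 0.28, adjusted p = 0.0829) in clone 10 and -1.93 (SE 0.30, adjusted p = 0.0566) in clone 4. The difference between the clones was 0.92 (SE 0.41, adjusted p = 0.648). The call over both clones was lost without pair 1 of clone 4 (-1.35, adjusted p = 0.0567) and held without the pair of the shallowest library (-1.56, adjusted p = 0.00774).

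Ccnd3, the D-cyclin with the broadest tissue distribution, had 248, 190 and 235.5 CPM in clone 10 GFP-positive cells, against 401, 246 and 359 CPM in clone 10 GFP-negative cells. Libraries of clone 4 had 199, 135 and 149 CPM in GFP-positive cells, against 224, 145 and 166 CPM in GFP-negative cells. In clone 10 the groups overlapped by a single library, since GFP-negative replicate 2 lay just below GFP-positive replicate 1. The paired differences were -0.99, -0.40 and -0.64 in clone 10 and -0.23, -0.08 and -0.06 in clone 4. In clone 10 the log2 change within pairs was -0.68 (SE 0.14, adjusted p = 0.0292), against -0.72 (SE 0.26, adjusted p = 0.513) without the block. In clone 4 it was -0.13 (SE 0.13, adjusted p = 0.785) and over both clones -0.40 (SE 0.10, adjusted p = 0.0589) within pairs. The difference between the clones was -0.55 (SE 0.19, adjusted p = 0.60) within pairs, so the changes were not shown to differ. Without the shallowest library's pair the clone 10 change was -0.52 (adjusted p = 0.0341). The call was lost without clone 10 pair 3 (adjusted p = 0.168), clone 4 pair 2 (0.0587) or clone 4 pair 3 (0.0858).

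Ccnd1, the D-cyclin whose gene answers to growth factor signals, had 85.1, 198 and 102 CPM in clone 10 GFP-positive cells, against 92.5, 230.5 and 194 CPM in clone 10 GFP-negative cells. For clone 4 the values were 49.7, 38.7 and 117 CPM in GFP-positive cells, against 47.9, 71.1 and 131 CPM in GFP-negative cells. The groups overlapped in both clones, and by plain CPM pair 1 of clone 4 was slightly higher in the GFP-positive library. The log2 change over both clones was -0.42 within pairs (SE 0.14, adjusted p = 0.123). Its 95% interval ran from -0.74 to -0.11.

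**Figure D2:**
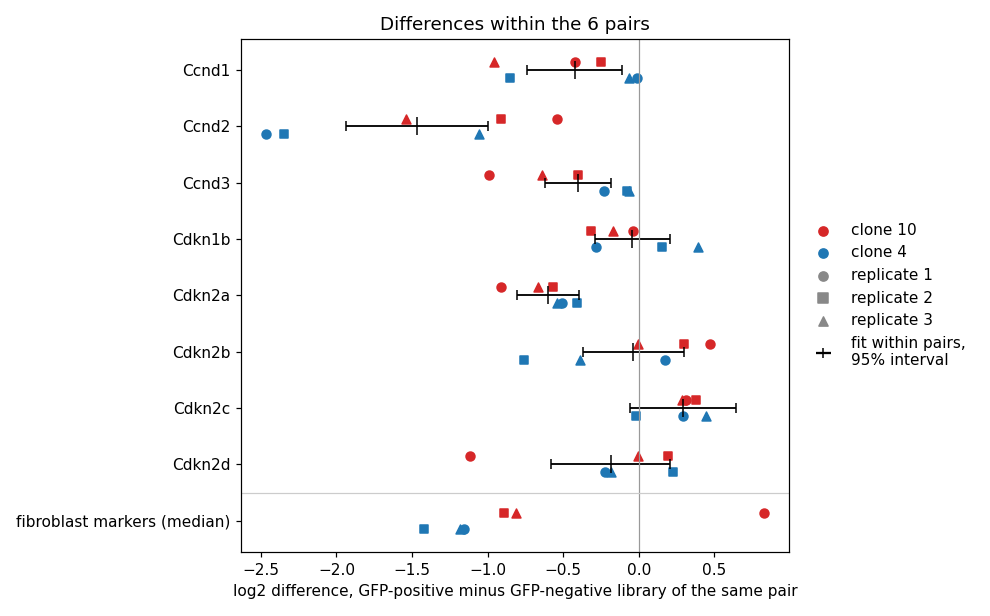
Log2 CPM of the GFP-positive library minus that of its GFP-negative partner, 1 point per pair, for the 8 genes and, in the last row, for the median of 21 fibroblast markers. Black bars give the estimate over both clones and its 95% interval from the fit within pairs. All points of Ccnd1, Ccnd2, Ccnd3 and Cdkn2a lie below 0, from -0.01 for Ccnd1 in clone 4 pair 1 to -2.47 for Ccnd2 in the same pair, though by plain CPM that Ccnd1 pair is slightly higher in the GFP-positive library.

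Together the D-cyclin transcripts summed to 60.9 ± 15.5 RPKM in clone 10 GFP-positive cells and 91.1 ± 19.3 RPKM in clone 10 GFP-negative cells (SD, n = 3 each). In clone 4 the sums were 34.3 ± 9.72 RPKM in GFP-positive cells and 42.7 ± 8.08 RPKM in GFP-negative cells. By library, clone 10 GFP-positive cells had 49.5, 78.6 and 54.7 RPKM, against 69.1, 104.5 and 99.9 RPKM in clone 10 GFP-negative cells. Clone 4 GFP-positive cells had 33.6, 24.96 and 44.4 RPKM, against 37.6, 38.5 and 52.0 RPKM in clone 4 GFP-negative cells. In each pair the GFP-positive library had the lower sum, and the groups overlapped in both clones. Ccnd2 made up 12.2% ± 6.33 of the sum in clone 10 GFP-positive cells and 16.5% ± 10.5 in clone 10 GFP-negative cells. In clone 4 its share was 3.93% ± 2.48 in GFP-positive cells and 11.1% ± 6.35 in GFP-negative cells (SD, n = 3 each). Ccnd3 and Ccnd1 supplied the rest, Ccnd3 at 26.8% to 67.8% of the sum and Ccnd1 at 27.1% to 56.2%. Sums and shares depend on the exon lengths used, 4709 bases for Ccnd1, 9409 for Ccnd2 and 8775 for Ccnd3.

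**Figure D3:**
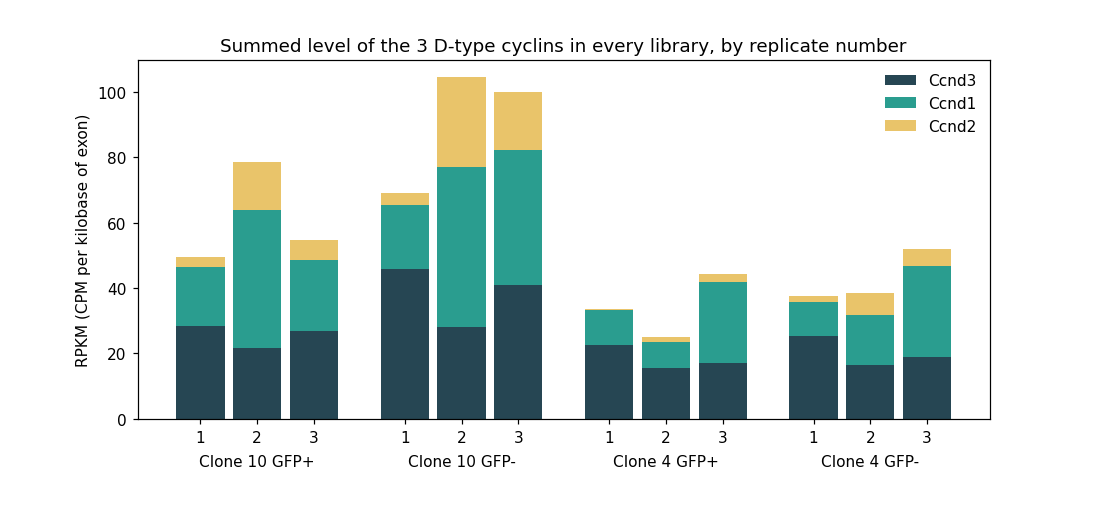
Stacked RPKM of Ccnd1, Ccnd2 and Ccnd3 in each of the 12 libraries, the bars starting at 0. The tallest bar is clone 10 GFP-negative replicate 2 at 104.5 RPKM and the shortest is clone 4 GFP-positive replicate 2 at 24.96 RPKM.

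Among the inhibitor genes that are members, Cdkn2a fell within pairs over both clones and in clone 10, and none rose. Cdkn2a had 20.0, 13.5 and 28.3 CPM in clone 10 GFP-positive cells, against 30.7, 19.6 and 44.1 CPM in clone 10 GFP-negative cells. Its clone 4 levels were 35.1, 33.4 and 25.5 CPM in GFP-positive cells, against 47.6, 45.1 and 39.5 CPM in GFP-negative cells. All 3 clone 4 GFP-positive libraries lay below all 3 GFP-negative ones, whereas in clone 10 the groups overlapped. Such a separation downward in clone 4 was met by 2.04% of the genes tested, and by 1 of the 8 members. The paired differences lay between -0.91 and -0.41, and their standard deviation of 0.14 within clones stood at percentile 9.03 of all genes.

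Over both clones the log2 change of Cdkn2a was -0.60 within pairs (SE 0.09, 95% confidence interval -0.80 to -0.40, adjusted p = 0.0107). Without the block it was -0.61 (SE 0.21, adjusted p = 0.458). In clone 10 the change within pairs was -0.72 (SE 0.13, adjusted p = 0.0197) and in clone 4 -0.48 (SE 0.13, adjusted p = 0.315). The difference of -0.23 between the clones (SE 0.18, adjusted p = 0.752) did not pass the test. Without the pair of the shallowest library the values were -0.55 over both clones (adjusted p = 0.00381) and -0.62 in clone 10 (adjusted p = 0.0257). The call over both clones was lost without clone 10 pair 3 (0.0519), clone 4 pair 1 (0.0689) or clone 4 pair 3 (0.0755). That in clone 10 was lost without clone 10 pair 3 (adjusted p = 0.131) or clone 4 pair 3 (0.062). Because both transcripts share their later exons, the counts do not say whether ARF, p16 or both were lower.

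Cdkn2b, the neighbour of Cdkn2a, had 13.3, 6.35 and 19.3 CPM in clone 10 GFP-positive cells, against 7.79, 5.06 and 19.0 CPM in clone 10 GFP-negative cells. The levels in clone 4 were 15.8, 6.58 and 5.11 CPM in GFP-positive cells, against 13.4, 11.4 and 7.12 CPM in GFP-negative cells. The direction differed among the pairs, the GFP-positive library being lower in 2 of 6 by plain CPM and in 3 of 6 by log2 CPM. The log2 change over both clones within pairs was -0.03 (SE 0.15, 95% confidence interval -0.37 to 0.30, adjusted p = 0.894).

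Cdkn2c, the p18 gene, had 4.97, 2.02 and 5.37 CPM in clone 10 GFP-positive cells, against 3.24, 1.502 and 4.30 CPM in clone 10 GFP-negative cells. Libraries of clone 4 had 3.75, 3.39 and 2.98 CPM in GFP-positive cells, against 2.92, 3.49 and 2.31 CPM in GFP-negative cells. It was higher in 5 of 6 pairs, with overlapping groups and a log2 change within pairs of 0.29 (SE 0.15, adjusted p = 0.249).

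Cdkn2d, the p19 gene, had 20.3, 14.0 and 16.0 CPM in clone 10 GFP-positive cells, against 35.9, 12.0 and 15.7 CPM in clone 10 GFP-negative cells. For clone 4 the values were 20.3, 22.0 and 12.1 CPM in GFP-positive cells, against 22.6, 19.1 and 14.6 CPM in GFP-negative cells. The highest value was that of the shallowest library. The log2 change in clone 10 was -0.31 within pairs (SE 0.25, adjusted p = 0.443) and 0.09 without that library's pair.

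Cdkn1b, whose product p27 holds back CDK2, had 30.3, 22.1 and 25.6 CPM in clone 10 GFP-positive cells, against 25.2, 27.0 and 28.2 CPM in clone 10 GFP-negative cells. Its clone 4 levels were 33.8, 60.8 and 26.3 CPM in GFP-positive cells, against 39.3, 55.4 and 21.3 CPM in GFP-negative cells. The groups overlapped and the pairs pointed both ways. The log2 change over both clones within pairs was -0.04 (SE 0.11, 95% confidence interval -0.29 to 0.20, adjusted p = 0.813).

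In the edgeR fit without the block 0 of the 8 members were called in either clone or over both. The share called among all genes was 0% in clone 10, 0% in clone 4 and 0.158% over both clones. At an unadjusted p under 0.05 the fit had 2 members in clone 10, 0 in clone 4 and 3 over both clones, and limma-voom without the block also called 0. DESeq2 without the block called 0 members as well, where it called 1.69% of all genes in clone 10, 0.167% in clone 4 and 1.7% over both clones. Within pairs 2 of 8 members were called over both clones, both lower, where 3.36% of all genes were called and 0.85% were called lower. In clone 10 it was 2 of 8, both lower, against 4.22% called and 0.731% called lower. In clone 4 it was 0 of 8, against 0.119%, with 2 members at an unadjusted p under 0.05. With DESeq2 within pairs 4 members were called lower over both clones, 3 in clone 10 and 1 in clone 4, where 3.54%, 3.88% and 0.608% of all genes were called lower. The members lower in 6 of 6 pairs were 4 of 8, Ccnd1 (5 by plain CPM), Ccnd2, Ccnd3 and Cdkn2a, and 7.29% of all genes met that count. The median log2 change within pairs over both clones was -0.29 for the 8 members and 0.0031 for all genes. The difference between the clones in their gate changes was called for 0 members within pairs and without the block (0% of all genes in both fits), with 1 and 0 members at an unadjusted p under 0.05. DESeq2 called 0 members for that difference too, against 0.431% of all genes within pairs and 0% without the block. In the authors' deposited tables, from a separate test in each clone, 0 members had an adjusted p under 0.05, among 418 such genes in clone 10 and 8 in clone 4. Cdkn2d has no p-value there in clone 10. The authors' deposited tables give Ccnd3 -0.67 and Cdkn2a -0.63 as log2 fold changes in clone 10, and Ccnd2 -0.74 and Cdkn2a -0.42 in clone 4. That Ccnd2 change is smaller than the -1.71 of the edgeR fit without the block in clone 4, for a reason that was not tested.

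Markers of fibroblasts moved with the gate in most pairs. Of 23 markers 21 could be tested, Lum and Fap were at 0 in 4 libraries each, and none of the 6 defining markers (Col1a1, Col1a2, Col3a1, Thy1, Prrx1, Twist2) was at 0 in any library. Within pairs 7 of the 21 fell over both clones, 1 fell in clone 10 and 3 in clone 4. Of all genes 0.85% were called lower over both clones and 0.731% in clone 10. In clone 4 0.119% were called in either direction. Their summed level was 1044 to 2102 CPM in clone 10 GFP-positive cells, against 602 to 3263 CPM in clone 10 GFP-negative cells. The sum in clone 4 was 1003 to 1651 CPM in GFP-positive cells, against 1148 to 2616 CPM in GFP-negative cells, and Fn1 alone made up 57.0% to 78.7% of the sum in the 12 libraries. The median difference over the 21 markers was 0.83, -0.89 and -0.81 in the clone 10 pairs and -1.16, -1.42 and -1.18 in the clone 4 pairs (log2 CPM). Thus 5 pairs moved downward with the cyclins. In clone 10 pair 1 the markers were higher, 17 of 21 of them, while Ccnd2 (-0.54), Ccnd3 (-0.99) and Cdkn2a (-0.91) were lower. The markers' median level was also lowest in replicate 1 of every group, as for Ccnd2. Summed markers of the 2-cell-like state exceeded, in every pair, those of the GFP-negative partner, by 2.28 to 5.01 (log2). The summed pluripotency markers differed by -0.91, -0.11 and -0.32 in the clone 10 pairs and by -0.45, -0.03 and 0.12 in the clone 4 pairs (log2). The part of these cell types and of the mitochondrial share in the members' changes was not tested. With passage as a covariate in the fit without the block the log2 changes were -1.68 for Ccnd2 (adjusted p = 0.0961) and -0.61 for Cdkn2a (adjusted p = 0.426) over both clones and -0.63 for Ccnd3 in clone 10 (adjusted p = 0.439).

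The second question was how clone 10 and clone 4 differed within a gate. All 3 D-type cyclins had higher means in clone 10 in both gates, but no member passed the edgeR test without a block in either gate. Ccnd2 averaged 76.0 ± 57.2 CPM in clone 10 GFP-positive cells and 12.8 ± 9.68 CPM in clone 4 GFP-positive cells (SD, n = 3 each). These groups did not overlap, as for 11.5% of all genes in that direction, and the log2 difference was 2.59 (SE 0.85, adjusted p = 0.167). In GFP-negative cells it was 1.93 (SE 0.82, adjusted p = 0.386), with overlapping groups. With passage as a covariate the Ccnd2 differences were 1.86 (adjusted p = 0.127) in GFP-positive cells and 0.91 (adjusted p = 0.469) in GFP-negative cells. Replicates 2 and 3 are labelled passages 13 to 16 in clone 4 and 17 to 20 in clone 10. Passage thus largely follows clone, and this fit cannot cleanly separate the 2. Taken in sample order, those labels rise in steps of 1, and whether they are exact is unknown. Ccnd3 averaged 335 ± 80.2 CPM in clone 10 GFP-negative cells and 178 ± 40.6 CPM in clone 4 GFP-negative cells. These groups did not overlap, as for 4.29% of all genes, and the log2 difference was 1.09 (SE 0.27, adjusted p = 0.159). Without the shallowest library it was 0.84 (adjusted p = 0.247).

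Ccnd1 differed by 0.92 (SE 0.53, adjusted p = 0.476) between GFP-positive cells of clone 10 and clone 4 and by 1.18 (SE 0.53, adjusted p = 0.411) between GFP-negative cells. Leaving out single libraries moved these values over 0.39 to 1.65 and over 0.90 to 1.70. The inhibitors showed no common direction between the clones. Cdkn1b had log2 differences of -0.59 (SE 0.34) in GFP-positive cells and -0.35 (SE 0.34) in GFP-negative cells. Cdkn2a had -0.58 (SE 0.29) and -0.33 (SE 0.29) in the same order. Cdkn2b, Cdkn2c and Cdkn2d lay between -0.07 and 0.53. The share of all genes called was 1.11% in GFP-positive cells and 0.0461% in GFP-negative cells, against 0 of 8 members in each. At an unadjusted p under 0.05 there were 1 and 3 members, and DESeq2 called 1 in each gate, Ccnd2 in GFP-positive cells (adjusted p = 0.0176) and Ccnd3 in GFP-negative cells (adjusted p = 0.0126). The shares of all genes that DESeq2 called were 5.26% and 2.56% in the same order, and limma-voom called 0 members in both.

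**Figure D4:**
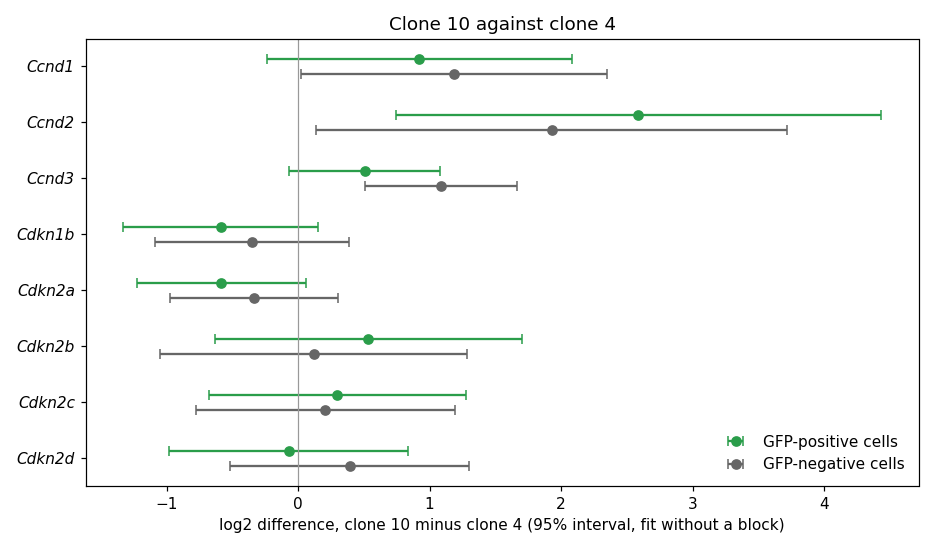
Log2 difference of clone 10 over clone 4 for each member, with 95% confidence intervals of the edgeR fit without the block, in GFP-positive and GFP-negative cells. The points of the 3 D-type cyclins lie at 0.51 to 2.59, to the right of 0, and those of the 5 inhibitors between -0.59 and 0.53.

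Around the members, 46 genes of the G1 network were taken by role and all were tested. They comprise CDK partners, E-type and A-type cyclins, other CIP/KIP inhibitors, pocket proteins, E2F and DP factors, turnover and activating factors, regulators of the Cdkn2a locus, ARF targets and transcription factors of the cyclin genes. In the fit without the block 0 of 46 were called in the comparisons of gates and of clones. Within pairs 2 of 46 rose in clone 10, 1 rose and 1 fell over both clones, and 0 were called in clone 4. These counts are near the shares of all genes called within pairs, 4.22% in clone 10, 3.36% over both clones and 0.119% in clone 4. The median log2 change of the 46 within pairs over both clones was 0.03.

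Mdm2, the ligase that ARF holds back, had 520, 503 and 502 CPM in clone 10 GFP-positive cells, against 184, 267 and 314 CPM in clone 10 GFP-negative cells. These groups did not overlap, as for 10.9% of all genes in that direction. The levels in clone 4 were 492, 359 and 383 CPM in GFP-positive cells, against 311, 380 and 344 CPM in GFP-negative cells, with overlap. It rose within pairs by 0.91 in clone 10 (SE 0.16, adjusted p = 0.0182) and by 0.59 over both clones (SE 0.11, adjusted p = 0.0309). In clone 4 its change was 0.26 (SE 0.16, adjusted p = 0.70). Trp53, the target of MDM2, stood at -0.34 over both clones (SE 0.14, adjusted p = 0.174).

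Cdkn1c, which encodes the CIP/KIP inhibitor p57, had 34.4, 19.0 and 30.0 CPM in clone 10 GFP-positive cells, against 13.3, 15.3 and 12.3 CPM in clone 10 GFP-negative cells. The groups did not overlap, as for 10.9% of all genes in that direction. Cdkn1c rose within pairs in clone 10 by 0.87 (SE 0.20, adjusted p = 0.0466), while in clone 4 the change was -0.17 (SE 0.19, adjusted p = 0.792). The difference between the clones was 1.03 (SE 0.27, adjusted p = 0.528). Cdkn1a, the p21 gene, was at 0.12 over both clones (SE 0.10, adjusted p = 0.436).

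Myc, which encodes a transcription factor of growth genes, Ccnd2 among them, had 24.5, 39.7 and 17.2 CPM in clone 10 GFP-positive cells, against 32.5, 57.6 and 21.2 CPM in clone 10 GFP-negative cells. Libraries of clone 4 had 12.3, 1.07 and 32.7 CPM in GFP-positive cells, against 15.5, 1.56 and 43.3 CPM in GFP-negative cells. Each GFP-positive library lay below its partner while the replicates of a group ranged widely. Myc fell within pairs over both clones by 0.46 (SE 0.10, adjusted p = 0.0443). The calls of Mdm2, Cdkn1c and Myc are given without values from leaving out pairs. The kinases Cdk4 (-0.39, SE 0.14, adjusted p = 0.136) and Cdk6 (-0.28, SE 0.13, adjusted p = 0.191) did not pass the test, nor did Rb1, the retinoblastoma gene (0.73, SE 0.17, adjusted p = 0.0519).

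The genes whose log2 CPM followed each member most closely over the 12 libraries were listed as a description, since libraries share clone, replicate and depth. For Ccnd2 they were Vim (Pearson r = 0.92), which encodes the intermediate filament vimentin of mesenchymal cells, Nnt (0.91) and Lrrc4b (0.91). For Ccnd1 they included Nfib (0.96) and Polr3d (0.96), and for Ccnd3 they were Stub1 (0.97), Tmed1 (0.97) and Tkt (0.96). For Cdkn2a they were Yipf1 (0.93), Tab1 (0.92) and Iglon5 (0.92), and for Cdkn2b Serping1 (0.93), Ptges (0.93) and Gda (0.91). Cdkn1b ran with Fgf11 (0.93), Klhdc2 (0.92) and Klf11 (0.91), and Cdkn2c with Hlx (0.93), Zfpm1 (0.91) and Adtrp (0.90). For Cdkn2d they were Rps14 (0.97) and Rpsa (0.96), which encode ribosomal proteins, and the proteasome gene Psmb1 (0.97). Among the members themselves Ccnd1 and Ccnd2 had an r of 0.86 and Cdkn2b and Cdkn2c 0.74, while Cdkn2a and Cdkn2b had 0.37. Ccnd1 and Cdkn1b had -0.71.

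Of the 8 members Ccnd1 shares 1100 exon bases with LTO1 and Ccnd3 361 with Bysl, both on the opposite strand. Ccnd2 shares 372 and 368 bases with the antisense transcripts Gm43126 and 9330179D12Rik. No source used here says whether counting used the strand, and reads of these stretches cannot be told apart, and the 3 cyclin values carry that uncertainty.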

How the data were processed

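RNA of 12 libraries was prepared with TruSeq v2 kits. The authors deposited whole-number read counts per gene, not normalized. The submitters' processing notes name STAR 2.3.0e, HTSeq 0.6.0, DESeq, DESeq2 and mm10, without saying which annotation was counted. Per the file headers, the deposited table of each clone adds a signal per library (counts over a size factor), log2 fold changes, their standard errors, a test score and p-values. Only the log2 fold changes and p-values of the authors were used from them, with symbols and coordinates.

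Counts were tested with edgeR 4.0.16 in R 4.3.3: TMM normalization, robust quasi-likelihood F test and 1 fit over all libraries with a term per group (8 residual degrees of freedom). Genes were kept with the CPM that 10 counts give in a median library reached in 3 libraries, and 15 counts in total, leaving 15179 genes. Adjusted p-values are those of Benjamini and Hochberg over all of these, and genes were called at an adjusted p under 0.05. A member or gene is said to rise or fall only where it was called. A second fit held clone and replicate number as a block (within pairs, 4 residual degrees of freedom). Same-numbered libraries of a clone deviated together (r of 0.548 to 0.822 in 6 pairs) and were therefore treated as pairs. The labels state no pairing, so this block rests on the same data that it was used to test. Across clones, libraries numbered 1 deviated together (r of 0.399 to 0.588). Those numbered 2 (-0.293 to -0.0714) or 3 (-0.425 to -0.172) did not. Libraries of unequal number ran from -0.448 to 0.683 across clones, so numbers were not taken to pair libraries across clones. Standard errors (SE) and 95% intervals come from these fits. CPM uses library totals, log2 CPM uses effective library sizes with a prior count of 2, and RPKM uses exon lengths of GENCODE M21, matched for 21854 of 22753 genes. Intervals cover the spread between libraries only. The test was tried on simulated counts with known changes, in which the pairs were built in. That trial checked the code and does not show whether the calls made here are right.

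All 8 members were named, with the G1 genes called in a comparison (at most 6 each) and the 3 genes of highest correlation for each member, predicted names passed over and 1 gene not reported here. The members and lists were chosen with earlier results of these data known. DESeq2 1.42.0, limma-voom (limma 3.58.1), other filters and scalings, passage as a covariate and leaving out libraries or pairs were tried as alternatives.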

Additional observations from a re-analysis of the deposited data

How the results depend on the processing

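Between the gates the block of the pair decided which members were called, as given beside each result. Without any block edgeR made 0 calls under every normalization, filter, covariate or left-out library run here. With the replicate block the count of members called over both clones was 2 in the edgeR fit, with no filter, with DESeq2 size factors and with library totals alone, 3 with limma-voom and 4 with DESeq2. In clone 10 it was 2 in those edgeR fits, 3 with limma-voom and 3 with DESeq2, but 0 with the block and only the libraries of clone 10. In clone 4 it was 0 with the block, and 1 (Ccnd2) with DESeq2, with no filter or with only the libraries of clone 4. Leaving out a library or a pair in turn gave 0 to 3 members over both clones, 0 to 2 in clone 10 and 0 to 1 in clone 4, the higher counts all coming from fits within pairs. No share of all genes called is given for limma-voom, other filters and scalings, single-clone fits or left-out libraries and pairs. The member counts of those fits therefore cannot be set against such a share. For clone 10 against clone 4, DESeq2 without a block and edgeR with a block on the replicate number alone each called 1 member per gate. Both called Ccnd2 in GFP-positive cells and Ccnd3 in GFP-negative cells. The block on the number does not pair libraries across clones. DESeq2 called 5.26% and 2.56% of all genes in the same order, and no share is given for the block on the number.

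Leaving out a library or a pair kept the sign of Ccnd2 and Cdkn2a in every gate comparison, while the direction of some other uncalled changes depended on it. For GFP-positive against GFP-negative cells the ranges were, over both clones, -0.25 to 0.11 for Cdkn1b, -0.32 to 0.28 for Cdkn2b and -0.43 to 0.10 for Cdkn2d. In clone 10 they were -0.17 to 0.78 for Cdkn2b, -0.0083 to 0.63 for Cdkn2c and -0.81 to 0.24 for Cdkn2d. In clone 4 they were -0.93 to 0.28 for Ccnd1, -0.28 to 0.0751 for Ccnd3, -0.32 to 0.39 for Cdkn1b, -0.82 to 0.0474 for Cdkn2b and -0.20 to 0.15 for Cdkn2d. For the difference between the clones' gate changes they were -0.79 to 0.45 for Ccnd1, -0.22 to 1.44 for Ccnd2, -0.56 to 0.15 for Cdkn1b, -0.24 to 0.40 for Cdkn2c and -0.76 to 0.28 for Cdkn2d. For clone 10 against clone 4 they were -0.26 to 0.071 for Cdkn2d in GFP-positive cells, and -0.47 to 0.45 for Cdkn2b, -0.037 to 0.54 for Cdkn2c and -0.35 to 0.69 for Cdkn2d in GFP-negative cells.

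With passage as a covariate Cdkn2d turned to 0.0492 between the gates of clone 4 and to 0.36 between the clones in GFP-positive cells. Between the clones passage largely follows clone, so the latter value does not cleanly separate them. Scaling by library totals alone, chosen after seeing the data, gave Cdkn1b 0.0072 and Cdkn2b 0.0372 over both clones, and 0.0078 and 0.0154 with the replicate block. It also moved the median of all genes, to 0.07 from -0.04 between the gates of clone 10 and to -0.12 from 0.04 between the clones in GFP-negative cells. There Cdkn2b turned to -0.0039, against -0.0511 with limma-voom and -0.0038 with the block on the replicate number. The cause of these turns was not tested. Depth gives the least counting precision for Cdkn2c, at 42 to 109 counts a library.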
